A study of Mus musculus with 18 samples.

Results

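The NADPH oxidases and nitric oxide synthases described here are the enzymes that make superoxide, hydrogen peroxide and nitric oxide (NO) on purpose, and their transcripts were followed in 3 organs (liver, intestine and lung) of septic mice kept with or without hydrogen in the air they breathed. The rule lists them by gene symbol and applies no measured value, although earlier results of these data were known when the list was drawn up, and all 9 symbols (Cybb, Cyba, Ncf1, Ncf4, Nox1, Duox2, Duoxa2, Nos2 and Nos3) were found among the 24346 symbols of the deposited tables. Male C57BL/6 mice aged 9 weeks underwent cecal ligation and puncture, in which the cecum is tied and pierced so that gut bacteria leak into the abdomen. H2 mice then breathed 7% hydrogen without a break in a box that held them together, so that the gas and the housing cannot be told apart, and control mice had the same operation without the gas. Organs were taken 24 h after surgery, and poly(A) RNA of 3 samples per organ and treatment was sequenced, which gave 18 libraries in 6 groups. The labels do not say which organs came from the same mouse, so p-values measure the spread between these libraries. All mice were septic, so the levels below are levels in sepsis with or without hydrogen.

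NADPH oxidases pass electrons from NADPH across a membrane to oxygen. In phagocytes the catalytic subunit NOX2 (Cybb) sits in the membrane with its partner p22phox (Cyba), and it is switched on when cytosolic proteins, among them p47phox (Ncf1) and p40phox (Ncf4), join it together with a Rac GTPase. Gut epithelium uses other catalytic subunits, NOX1 and DUOX2, of which DUOX2 needs the maturation factor DUOXA2 to leave the endoplasmic reticulum. NO synthases turn arginine into NO; the inducible enzyme (Nos2) is made in inflammation, and the endothelial enzyme (Nos3) sets vessel tone.

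Promoters of 6 of the 9 genes were found in the RefSeq table for GRCm38.p6, the same assembly as mm10. The first pair of sequences is shown because Cybb and Ncf1 encode subunits of 1 enzyme. In the mean over organs the first was called with hydrogen and the second was not, a difference between the genes that was not tested. The Duoxa2 sequence is shown because it lies between Duox2 and Duoxa2, which start head to head with 450 bases between them in GENCODE. Each runs 5′ to 3′ on its gene's strand and ends at the base before the RefSeq start, and capitals mark matches to the motifs named below.
Cybb (chrX:9469325-9469574, minus strand): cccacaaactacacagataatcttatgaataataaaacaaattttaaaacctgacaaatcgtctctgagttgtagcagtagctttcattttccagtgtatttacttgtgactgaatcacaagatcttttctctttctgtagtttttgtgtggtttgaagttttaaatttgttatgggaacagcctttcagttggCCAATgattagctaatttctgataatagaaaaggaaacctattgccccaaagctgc
Ncf1 (chr5:134229626-134229875, minus strand): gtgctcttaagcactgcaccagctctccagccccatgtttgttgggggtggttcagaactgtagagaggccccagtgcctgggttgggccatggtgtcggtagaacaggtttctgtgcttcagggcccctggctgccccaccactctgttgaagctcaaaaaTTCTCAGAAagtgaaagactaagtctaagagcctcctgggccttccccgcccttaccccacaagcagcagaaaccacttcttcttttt
Duoxa2 (chr2:122298741-122298899, plus strand): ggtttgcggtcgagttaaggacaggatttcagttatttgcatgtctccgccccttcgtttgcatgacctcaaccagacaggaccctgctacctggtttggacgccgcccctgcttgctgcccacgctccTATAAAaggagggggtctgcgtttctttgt

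Both strands were searched for a PU.1 core (GAGGAA), a STAT site (TTCNNNGAA), a TATA box (TATAAA) and a CCAAT box (CCAAT). Cybb held 1 CCAAT match, whose first base lies 56 bases before the start; 33.8% of the 32851 promoters in the table hold one in the same 250 bases. Ncf1 held 1 STAT match at 88 bases before the start, a motif found in 7.02% of promoters. The Duoxa2 stretch held 1 TATA match at 30 bases before the start, which 7.95% of promoters hold within 159 bases. Nox1 (250 bases, chrX:134111855-134112104, minus strand) held 1 PU.1 core at 23 bases before the start, against 23.3% of promoters, and the Cyba window held none of the 4 motifs. These matches describe letters and are no evidence of binding. The Cybb window lies inside the GENCODE span of the gene, upstream of the RefSeq start, and none of the 3 printed windows covers exon bases.

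FPKM, in which fragment counts are divided by transcript length and by library size, take gene length into account, so levels can be compared between genes. The depth implied by genes with single fragments was 8.80 to 16.1 M fragments per library. A gene was tested in an organ when its mean FPKM over the 6 libraries was at least 1. Changes are given as the log2 ratio of H2 to control, computed on FPKM + 1, which understates the change of low genes, and a gene is called at an adjusted p under 0.05 (limma, Benjamini-Hochberg over all genes tested). In bulk tissue, fewer cells of a type and less RNA per cell cannot be told apart. Control liver 2 and control lung 3 lay nearer to the H2 libraries than their group did, and control lung 1 lay farther away, so values without them are given beside the results they move. Leaving out either nearer library also raised the calls over all genes of its organ many times over (counts at the end). Calls that appear only without them are therefore no separate support for a gene. The small intestinal genes of the labelled intestine (6 of 6 found) summed to 6748 to 7450 FPKM in controls and 9683 to 16989 with H2. The groups did not overlap, and the highest sum was in H2 intestine 2. Colonic genes (6 of 6 found) summed to 538 to 699 FPKM against 857 to 2108, also without overlap. General intestinal epithelial genes overlapped, at 2280 to 3783 FPKM against 3012 to 5364. The part of these differences in the intestinal changes below was not tested.

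The 9 genes divided by organ. In control mice the lung carried the phagocyte oxidase, the intestine carried DUOX2, its maturation factor and inducible NO synthase, and the liver had little of either beyond Cyba. In the control lung, Cyba came first at 293 ± 79.9 FPKM (mean ± SD, n = 3), followed by Ncf1, Ncf4 and Cybb, of which Ncf4 and Cybb overlapped. Control intestine was led by Duoxa2 at 187 ± 36.8 FPKM, with Nos2, Duox2 and Cyba behind it, each overlapping its neighbour except Duoxa2. Cyba also led the control liver at 19.3 ± 1.53 FPKM, and none of the other 8 genes passed 5 FPKM there. Nos3 was the fifth gene in the lung and at or under 3.085 FPKM elsewhere. In the fit of all 18 libraries, control lung and intestine differed for 8 of the 9 genes (5 higher in lung, 3 higher in intestine), where 68.9% of all genes were called. Lung and liver differed for 7 of 9 (all higher in lung; 85.1% of all genes), and intestine and liver for 5 of 9 (all higher in intestine; 72.6%). The median gene itself was higher by 1.17 on the log2 scale in lung than in liver, by 0.64 in intestine than in liver, and by 0.45 in lung than in intestine, so small differences between organs are read against these shifts. Under quantile normalization, which removes the shifts, Nox1 and Nos2 no longer stood higher in lung than in liver. The lung excess of Nos3 over liver was then no longer called (adjusted p = 0.152), and Duoxa2 was called lower in lung (-0.92, adjusted p = 0.0384). Median-of-ratios scaling also lost the lung calls over liver of Nox1 (0.48, adjusted p = 0.0951) and Nos2 (0.40, adjusted p = 0.357), but kept that of Nos3 (0.71, adjusted p = 0.0466). Nox1 was called lower in lung than in intestine with quantile normalization (-0.93, adjusted p = 0.00265) and with median-of-ratios scaling (-0.69, adjusted p = 0.0218). Quantile normalization and median-of-ratios scaling both turned the intestinal estimates of Cybb, Ncf1 and Ncf4 against liver from higher to lower. With quantile normalization Ncf1 (-0.44, adjusted p = 0.0367), Ncf4 (-0.51, adjusted p = 0.0447) and Nos3 (-1.22, adjusted p = 0.000866) were called lower in intestine than in liver, as was Nos3 with median-of-ratios scaling (-1.05, adjusted p = 0.00624). Without control liver 2 and control lung 3, Nos3 was called lower in intestine than in liver (-0.91, adjusted p = 0.000337), and Nos2 was no longer called between lung and liver (0.74, adjusted p = 0.114).

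**Figure D1:**
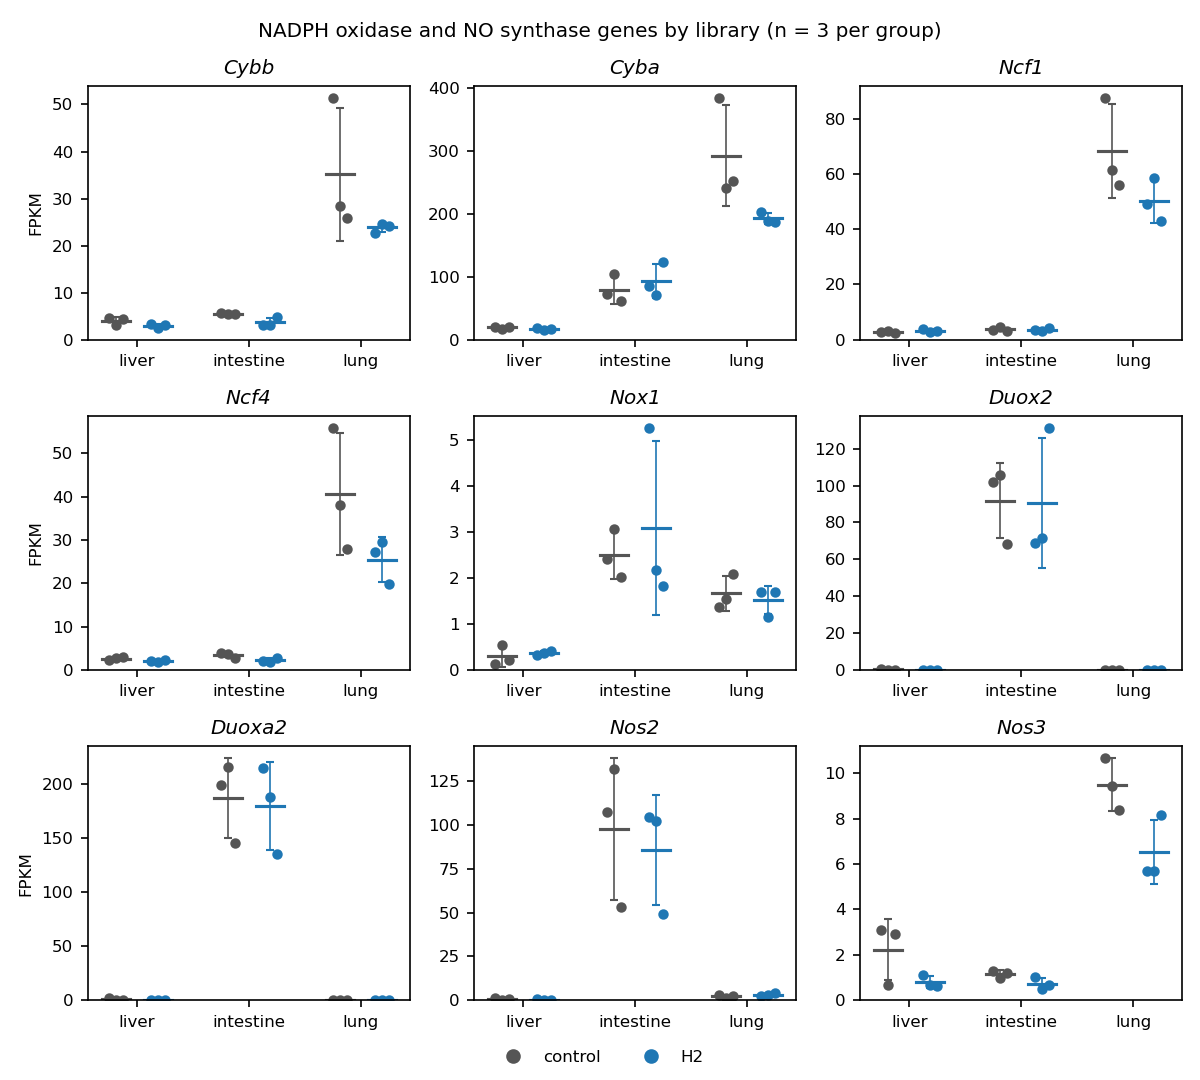
FPKM of the 9 genes in each library (points) with the group mean (line) and SD (bar), control in grey and H2 in blue, n = 3 per group, with a linear axis of its own for each gene. The 4 phagocyte oxidase genes of the top row and Ncf4 panel were highest in the lung, and Duox2, Duoxa2 and Nos2 in the intestine.

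With hydrogen, Cybb, Ncf4 and Nos3 were lower averaged over the 3 organs, and no gene of the 9 was called in any single organ. In the mean of the 3 organ changes, Cybb fell by 0.45 ± 0.12 (log2 ± SE, adjusted p = 0.0367), Ncf4 fell by 0.43 ± 0.12 (adjusted p = 0.0411) and Nos3 fell by 0.52 ± 0.15 (adjusted p = 0.0447). That is 3 of 9 called lower, where 5.23% of all 13362 genes were called lower, and none was called higher, where 4.39% were. The other 6 were not called, and their estimates lay between -0.20 (Duoxa2, adjusted p = 0.427) and 0.05 (Nox1, adjusted p = 0.831). The median of the 9 changes was -0.19, against 0.00 for all genes tested. All of these 3 calls lie close to the threshold. None was called when low genes were not filtered out, and with the replicate number as a block those of Cybb (adjusted p = 0.0560) and Nos3 (adjusted p = 0.0553) were lost. When each library in turn was left out, Cybb stayed called in 6 of 18 fits, with the estimate between -0.51 and -0.34. Ncf4 and Nos3 each stayed called in 4 of 18, with estimates from -0.51 to -0.34 and from -0.66 to -0.45. When the organs of each replicate number were first averaged, which leaves 3 values per treatment, none of the 3 was called (adjusted p = 0.109 for Cybb, 0.0936 for Ncf4 and 0.113 for Nos3). The same held for all 20 genes named below or above as called in the mean over organs, whose adjusted p then lay between 0.0588 and 0.138.

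In single organs, 0 of 5 tested genes were called in the liver (0.0199% of all genes), 0 of 8 in the intestine (0.0084%) and 0 of 7 in the lung (0.00745%) by limma. At an unadjusted p under 0.05 the counts were 0 in the liver, 2 in the intestine (Cybb and Ncf4, both lower) and 2 in the lung (Cyba and Nos3, both lower), where 21%, 12.5% and 23.1% of all genes passed. H2 libraries lay below control without overlap for 0 of 5 genes in the liver (13.1% of all genes), 1 of 8 in the intestine (8.75%) and 3 of 7 in the lung (15.9%). An exact permutation test of 3 against 3 libraries cannot go below p = 0.1. With all organs in 1 fit, the change of no member was called as different between any pair of organs, where 0.217% (intestine and liver), 0.239% (lung and liver) and 1.24% (lung and intestine) of genes were. Without control liver 2 and control lung 3, the change of Nos3 differed between intestine and liver by 0.83 (adjusted p = 0.0483). In that fit many more of all genes were called for this difference too (counts at the end). Intestinal Nos3 had a mean of 0.92 FPKM over the libraries, a level at which FPKM + 1 understates a change.

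**Figure D2:**
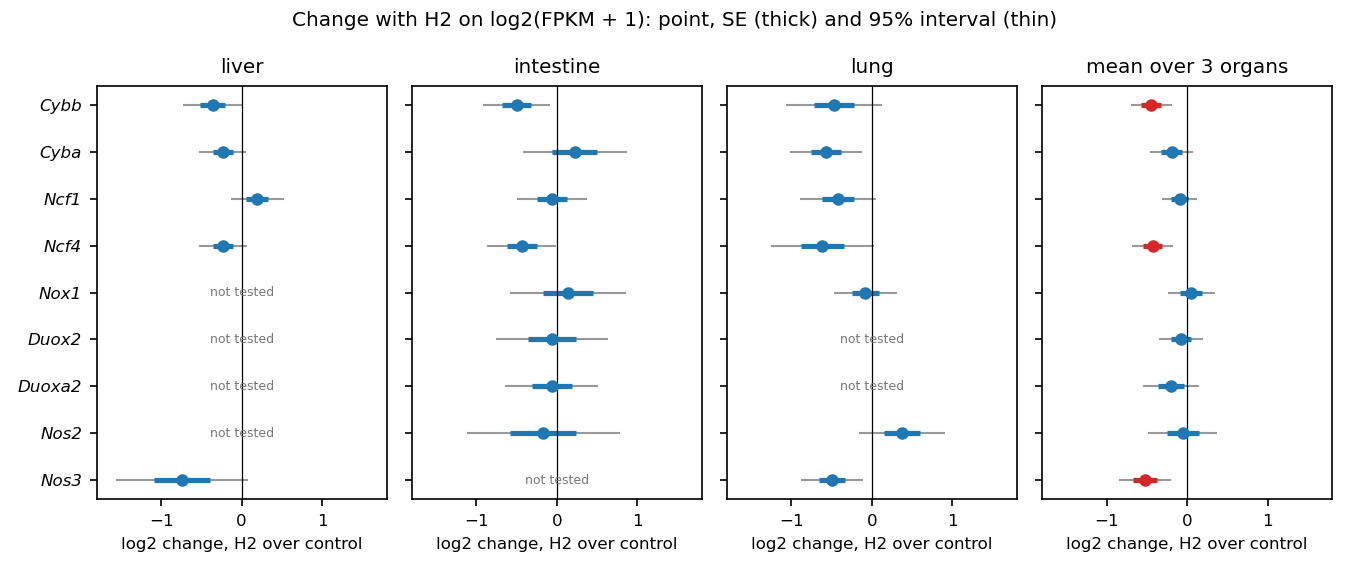
Change of each gene with H2 (log2 ratio to control, from FPKM + 1), in each organ and as the mean over the 3 organs, with SE (thick bar) and 95% interval (thin bar), where red marks adjusted p under 0.05. Cybb, Ncf4 and Nos3 are red in the mean over organs at -0.45, -0.43 and -0.52, and no point is red in a single organ.

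Cybb encodes NOX2, the subunit that makes superoxide, and lies on chromosome X (9435252 to 9487771, mm10). In the intestine the control libraries read 5.58, 5.53 and 5.47 FPKM and the H2 libraries 3.16, 3.10 and 4.76. The 3 controls lay within 0.11 FPKM of each other, and all H2 libraries lay below them. The change was -0.50 ± 0.18 (95% interval -0.91 to -0.09, adjusted p = 0.374). In the lung the controls read 51.5, 28.4 and 25.8 FPKM and the H2 libraries 22.7, 24.7 and 24.3. The groups did not overlap, but control lung 1 stood far above the other controls, and the gap between the lowest control and the highest H2 library was small. The lung change was -0.47 ± 0.25 (adjusted p = 0.281), and without control lung 1 it was -0.17 (adjusted p = 0.452). In the liver the values were 4.51, 3.21 and 4.46 FPKM in controls and 3.36, 2.42 and 3.00 in H2 mice, so that control liver 2 lay among the H2 libraries. The liver change was -0.36 ± 0.16 (adjusted p = 0.245). Without control liver 2 it was -0.49 (adjusted p = 0.0386) and would be called, as would many more of all genes.

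Ncf4 encodes p40phox, which binds the lipids of the phagosome membrane and keeps the oxidase active there (chromosome 15, 78244801 to 78262580). In the lung it read 55.9, 38.1 and 27.8 FPKM in controls and 27.1, 29.6 and 19.7 in H2 mice, with the lowest control inside the H2 range. The change was -0.62 ± 0.27 (adjusted p = 0.226), and it was -0.85 (adjusted p = 0.0405) without control lung 3 and -0.36 (adjusted p = 0.442) without control lung 1. Without control lung 3, many more of all genes were called too. Intestinal Ncf4 read 3.83, 3.61 and 2.78 FPKM in controls and 2.08, 1.88 and 2.82 in H2 mice. Here too 1 library of each group met, and the change was -0.44 ± 0.19 (adjusted p = 0.401). In the liver Ncf4 lay at 2.21, 2.75 and 2.87 FPKM in controls and 2.06, 1.84 and 2.31 in H2 mice, a change of -0.23 ± 0.13 (adjusted p = 0.317).

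Cyba encodes p22phox, which also carries NOX1, NOX3 and NOX4 and therefore is made outside phagocytes too (chromosome 8, 122424776 to 122432930). In the lung the controls read 385, 241 and 252 FPKM and the H2 libraries 203, 188 and 187. No H2 library reached the lowest control. The change was -0.57 ± 0.19 (95% interval -1.01 to -0.12, adjusted p = 0.179), and -0.35 without control lung 1 (adjusted p = 0.263). In the intestine the order was mixed, with 73.1, 104 and 60.9 FPKM in controls against 84.8, 71.0 and 123 in H2 mice, a change of 0.22 ± 0.28 (adjusted p = 0.732). The difference of lung and intestine was -0.79 ± 0.31 and was not called (adjusted p = 0.178). Hepatic Cyba read 20.1, 17.5 and 20.3 FPKM in controls and 17.8, 14.6 and 16.4 in H2 mice. Its change was -0.23 ± 0.12 (adjusted p = 0.309).

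Ncf1 encodes p47phox, the organiser that is phosphorylated when phagocytes are activated (chromosome 5, 134220053 to 134229625). Its estimates in the liver and the intestine lay above those of Cybb, a difference between genes that was not tested. Hepatic Ncf1 was 2.59, 2.99 and 2.51 FPKM in controls and 3.94, 2.76 and 3.03 in H2 mice (change 0.19 ± 0.14, adjusted p = 0.438). In the intestine it was 3.65, 4.59 and 3.10 FPKM against 3.58, 2.96 and 4.23, a change of -0.05 ± 0.19 (95% interval -0.49 to 0.38). Pulmonary Ncf1 was 87.6, 61.3 and 56.0 FPKM against 49.1, 58.6 and 43.0, with H2 lung 2 between the controls (change -0.42 ± 0.20, adjusted p = 0.248; -0.23 without control lung 1, adjusted p = 0.482). The lung change differed from the liver change by -0.61 ± 0.25, which was not called (adjusted p = 0.341). In GENCODE, 408 exon bases of Ncf1 overlap Gtf2ird2 on the other strand, and the sources used here do not say whether the counting used strand.

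The balance of the subunits within a library does not depend on how libraries are scaled, and it is given as a description because the ratios were chosen after values were seen. Ncf1 over Cybb was 0.573, 0.933 and 0.562 in control liver and 1.17, 1.14 and 1.01 in H2 liver. In the intestine it was 0.654, 0.831 and 0.567 against 1.13, 0.956 and 0.889. In both organs the H2 libraries held more p47phox transcript per NOX2 transcript, without overlap, whereas in the lung the ratio ran from 1.70 to 2.17 in controls and from 1.77 to 2.38 with H2. Cyba over Cybb in the intestine was 13.1, 18.9 and 11.1 in controls and 26.9, 22.9 and 25.9 with H2, again without overlap. In the lung that ratio ran from 7.47 to 9.78 in controls and from 7.64 to 8.94 with H2, so there the groups overlapped. Cybb over Ncf4 overlapped between the groups in each organ.

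**Figure D3:**
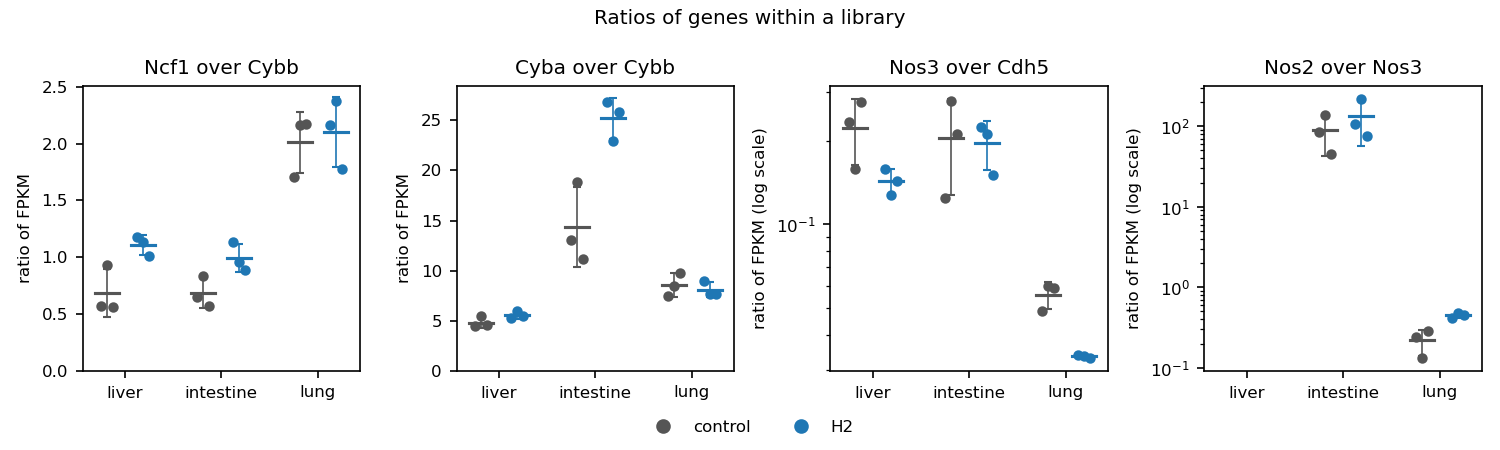
Ratios of FPKM of gene pairs in each library (points) with mean (line) and SD (bar), control in grey and H2 in blue, n = 3 per group, with log axes for the 2 ratios with Nos3 and Nos2 over Nos3 not shown for the liver. Ncf1 over Cybb separates the groups in liver and intestine, Cyba over Cybb in intestine, and Nos3 over Cdh5 and Nos2 over Nos3 in lung; in liver Nos3 over Cdh5 separates them only narrowly, with a lowest control of 0.1586 and a highest H2 library of 0.1582.

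Other genes of the oxidase family were taken from a list of 10. Of these, 7 were tested in the mean over organs, and 1 rose and 0 fell, where 4.39% of all genes were called higher and 5.23% lower, with a median change of -0.06 against 0.00 for all genes. The gene that rose was Nox4, whose constitutively active enzyme makes hydrogen peroxide in fibroblasts, smooth muscle and endothelium, at 0.71 ± 0.20 (adjusted p = 0.0393; called in 5 of the 18 fits that left out a library). In the lung it read 7.07, 16.9 and 22.5 FPKM in controls and 30.5, 28.6 and 37.6 with H2. All H2 libraries lay above all controls, and control lung 1 was again the farthest. The lung change was 1.13 ± 0.38 (adjusted p = 0.179), 0.69 without control lung 1 and 1.46 without control lung 3 (adjusted p = 0.0276). In the liver Nox4 read 2.65, 2.21 and 0.960 FPKM against 2.66, 7.46 and 4.47, which separates the groups by 0.01 FPKM at the nearest pair. Its change there was 0.96 ± 0.35 (adjusted p = 0.201), and in the intestine it stayed at or under 0.173 FPKM. Over Cybb, Nox4 stood at 0.137, 0.597 and 0.872 in control lung and at 1.34, 1.16 and 1.55 in H2 lung, so that in these libraries the order of the 2 catalytic subunits was reversed.

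Rac2, the GTPase of blood cells, was 76.9, 51.6 and 47.8 FPKM in control lung and 48.3, 48.7 and 42.4 in H2 lung, and its change over organs was -0.22 ± 0.10 (adjusted p = 0.163). Control lung 1 was its highest lung library, and H2 lung 1 and 2 lay just above control lung 3. The estimate over organs for Rac1, the GTPase of most cells, was -0.30 ± 0.11, which was not called (adjusted p = 0.0947). The lung change of the NOX1 activator Noxa1 was -0.76 ± 0.20 (adjusted p = 0.172), from 4.37, 5.02 and 2.76 FPKM to 2.16, 2.10 and 1.56. With 1 library left out, the Noxa1 estimate ran from -0.96 to -0.62. It was called in 1 of 6 such fits, the one without control lung 3 (-0.96, adjusted p = 0.0119). BC017643, an older symbol of Cybc1 that encodes a chaperone of the NOX2 and p22phox pair, had an intestinal estimate of 0.26 ± 0.17 (adjusted p = 0.512).

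The NOX2 genes are made mainly by neutrophils, monocytes and macrophages, so the markers of these cells are given beside them. Of 15 neutrophil markers 14 were found, and in the mean over organs 0 of 12 tested were called. Their summed level in the lung was 19781 to 30031 FPKM in controls and 19835 to 33040 with H2, which overlap. S100a8 and S100a9 made up most of that sum, and the estimates of the other markers had both signs: of 13 tested in the lung 0 were called, while 2 lay higher and 3 lower with H2 without overlap. Camp, a granule peptide, was 271, 323 and 281 FPKM in control lung and 149, 143 and 146 in H2 lung (adjusted p = 0.167). Cxcr2, a chemokine receptor, was 18.7, 20.3 and 26.2 FPKM against 29.5, 40.8 and 29.9 (adjusted p = 0.172). In the intestine the sums were 140 to 1145 FPKM against 261 to 461, and in the liver 127 to 351 against 102 to 204. The monocyte and macrophage markers (15 of 15 found) summed to 559 to 685 FPKM in control lung and 458 to 535 in H2 lung, so these were lower there without overlap, and in the liver they were higher, with 220 to 269 against 278 to 340. In the intestine they overlapped, at 158 to 192 against 144 to 218. Over organs, 2 of the 15 rose (Clec4f and Vsig4) and 1 fell (Ly6c2), against 4.39% and 5.23% of all genes. Clec4f, a gene of Kupffer cells, was at 0 in the intestine and in all but 1 lung library and read 6.63, 5.83 and 3.85 FPKM in control liver and 13.5, 18.6 and 19.2 in H2 liver. The liver estimate of Cybb (-0.36) and the macrophage sum of the liver thus had opposite directions, and in the lung they had the same one. Ly6c2, a gene of inflammatory monocytes, was 154, 126 and 94.0 FPKM in control lung and 62.4, 82.3 and 61.4 in H2 lung. The part of these cell markers in the changes of Cybb, Cyba and Ncf4 was not tested.

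NOX1 is the oxidase of the colon epithelium and smooth muscle, and its gene lies on chromosome X (134086421 to 134221956). In the intestine it read 2.41, 3.07 and 2.02 FPKM in controls and 5.26, 2.17 and 1.82 in H2 mice, so that H2 intestine 1 alone was high. The change was 0.14 ± 0.31 (95% interval -0.58 to 0.85), and it was -0.22 without H2 intestine 1. Its organiser Noxo1 stood far higher, at 24.3, 26.4 and 22.6 FPKM in controls and 40.1, 29.6 and 33.2 with H2, without overlap (change 0.47 ± 0.17, adjusted p = 0.380). In the lung Nox1 lay between 1.16 and 2.08 FPKM in the 6 libraries, and in the liver at or under 0.549 FPKM. A stretch of 399 exon bases of Nox1 overlaps Cstf2 on the other strand.

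DUOX2 releases hydrogen peroxide at the luminal face of the gut epithelium. Duox2 (chromosome 2, 122279247 to 122298449) read 102, 106 and 68.3 FPKM in controls and 69.1, 71.4 and 131 in H2 mice. Its neighbour Duoxa2 (122298900 to 122302885) read 199, 216 and 146 FPKM in controls and 215, 188 and 135 in H2 mice. Neither gene separated the groups. The changes were -0.06 ± 0.30 for Duox2 (95% interval -0.75 to 0.63) and -0.07 ± 0.25 for Duoxa2 (95% interval -0.64 to 0.51), so a change by 1 on the log2 scale lies outside both intervals. Duoxa2 over Duox2 was 1.96, 2.05 and 2.13 in controls, which is nearly constant. With H2 it was 3.11, 2.64 and 1.03, in which H2 intestine 3 lay below and the other 2 above the controls. Outside the gut both genes were near 0 except in control liver 1, which held 0.549 FPKM of Duox2 and 1.78 of Duoxa2. The paralogue Duox1 stayed at or under 0.215 FPKM in the intestine and Duoxa1, which shares 682 exon bases with Duoxa2 on the other strand, at or under 0.540.

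Nos2 encodes the inducible NO synthase, the high-output enzyme of inflamed epithelium and macrophages (chromosome 11, 78920787 to 78960254). In the intestine it read 108, 132 and 53.1 FPKM in controls and 105, 102 and 49.4 in H2 mice. In both groups library 3 was at about the same low level, and the other libraries lay near or above 100 FPKM. The change was -0.17 ± 0.41 (95% interval -1.11 to 0.78). In the lung it was 2.58, 1.25 and 2.38 FPKM against 2.34, 2.74 and 3.74, a change of 0.37 ± 0.22 (adjusted p = 0.331). In the liver it was 0.986, 0.06 and 0.45 FPKM in controls and at or under 0.366 with H2, too low to be tested.

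Nos3, the endothelial NO synthase gene (chromosome 5, 24364810 to 24384474), had the lowest estimate of the 9 in the mean over organs. In the lung the controls read 10.7, 9.46 and 8.36 FPKM and the H2 libraries 5.69, 5.70 and 8.15. No H2 library reached the lowest control, though H2 lung 3 came near it. The change was -0.49 ± 0.16 (95% interval -0.88 to -0.11, adjusted p = 0.177), and when each library was left out it stayed between -0.64 and -0.41. In the liver the controls read 3.085, 0.66 and 2.92 FPKM and the H2 libraries 1.097, 0.671 and 0.619. Control liver 2 lay among the H2 libraries, and the other 2 controls lay above all of them. The liver change was -0.74 ± 0.35 (adjusted p = 0.269). Without control liver 2 it was -1.17 (adjusted p = 0.00373), where many more of all genes were called too. In the intestine Nos3 was 1.28, 0.958 and 1.17 FPKM against 0.994, 0.469 and 0.658, which was below the level needed for a test. Nos3 shares 1040 exon bases with the antisense gene Gm15587 and 294 with Atg9b, and reads of the strands cannot be told apart if the counting ignored strand.

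Nos3 is made by endothelium, so 11 endothelial markers were set beside it. In the mean over organs 4 of 11 rose and 0 fell, where 4.39% of all genes were called higher and 5.23% lower, with a median of 0.27 against 0.00 for all genes tested. In the intestine 4 markers lay above 0 and 7 below 0, with a median of -0.16 and none called. The 4 called higher in the mean over organs were Ptprb, the vascular phosphatase (0.61 ± 0.13, adjusted p = 0.0176), the VEGF receptor Kdr (0.57 ± 0.13, adjusted p = 0.0234), the sialomucin Emcn (0.78 ± 0.19, adjusted p = 0.0288) and the angiopoietin receptor Tek (0.78 ± 0.22, adjusted p = 0.0382). Lung Kdr, for example, was 21.1, 21.3 and 26.7 FPKM in controls and 41.6, 35.7 and 45.9 with H2. The summed level of the 11 markers overlapped in the lung, at 1363 to 1528 FPKM in controls and 1297 to 1755 with H2. Per unit of the junction gene Cdh5, Nos3 in the lung was 0.0487, 0.0600 and 0.0588 in controls and 0.0338, 0.0337 and 0.0331 with H2, without overlap. Per unit of Pecam1 it was 0.0303 to 0.0634 against 0.0207 to 0.0243. In the liver 7 of the 10 markers tested lay above 0 and 3 below 0, with a median of 0.31 and none called. Cdh5 was among the 3 below 0. It read 13.2, 4.16 and 10.6 FPKM in control liver and 6.93, 5.25 and 4.32 with H2, so that Nos3 and Cdh5 were both low in control liver 2. Cldn5 did not share the direction of the 4 markers in the lung, with a change of -0.95 ± 0.37 on the same scale. Nos2 over Nos3 in the lung was 0.242, 0.132 and 0.284 in controls and 0.411, 0.480 and 0.459 with H2. These ratios too were chosen after values were seen.

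**Figure D4:**
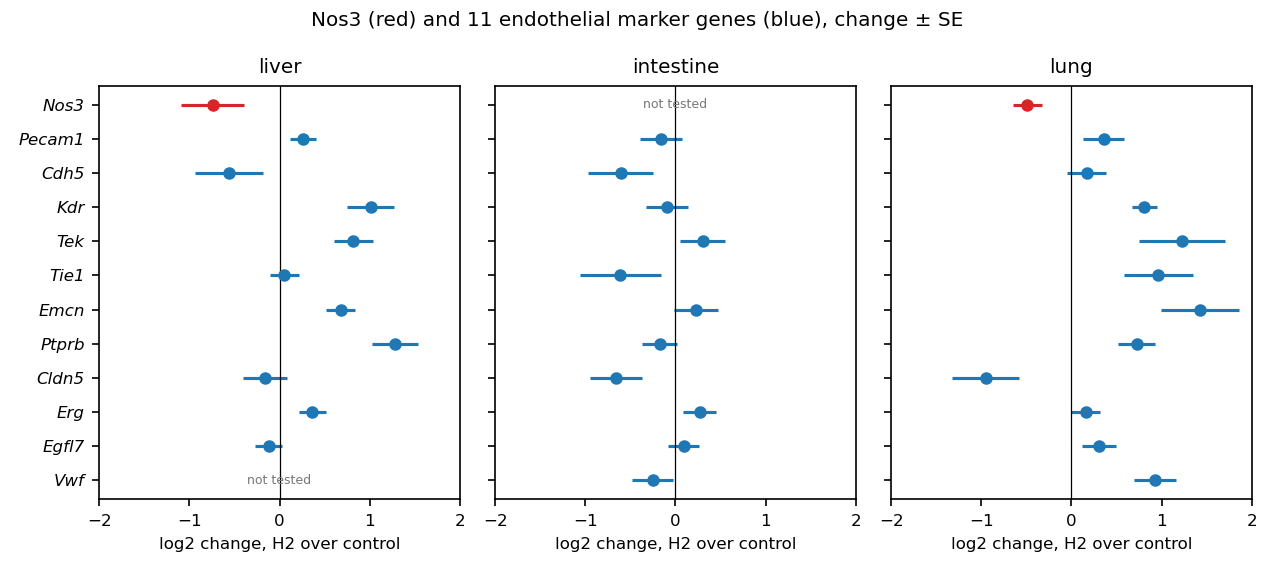
Change with H2 (log2 ratio to control from FPKM + 1, ± SE) of Nos3 in red and 11 endothelial markers in blue, by organ, n = 3 per group. In the lung Nos3 lies at -0.49 and 10 of the 11 markers lie above 0; in the intestine Nos3 was too low to be tested.

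The genes that supply and receive NO came from a list of 21, of which 20 were tested in the mean over organs. There 1 rose and 2 fell, where 4.39% of all genes were called higher and 5.23% lower, with a median of 0.13 against 0.00 for all genes. Arg1, the arginase that competes with NO synthases for arginine, fell by 1.72 ± 0.29 (adjusted p = 0.00893) and remained called in 18 of 18 fits with a library left out. It was 67.6, 28.0 and 10.9 FPKM in control lung and 3.92, 3.68 and 3.98 in H2 lung, and 27.5, 10.4 and 11.9 FPKM against 1.48, 1.37 and 5.48 in the intestine. The H2 libraries lay below the controls in both organs. In the liver, where arginase serves the urea cycle, it was 1310 to 1759 FPKM against 1051 to 1303. Slc7a1, the arginine transporter CAT1, fell by 0.65 ± 0.14 (adjusted p = 0.0178) and also remained called in 18 of 18. It read 10.6, 11.8 and 12.4 FPKM in control intestine and 7.15, 4.30 and 8.32 in H2 intestine. Gchfr, the feedback regulator of the enzyme that starts the synthesis of the NO synthase cofactor tetrahydrobiopterin, rose by 0.58 ± 0.15 (adjusted p = 0.0344; called in 6 of 18). The lung changes of the 2 subunits of the NO receptor guanylate cyclase were 0.71 ± 0.21 for Gucy1a3 and 0.60 ± 0.16 for Gucy1b3, neither of them called (adjusted p = 0.172 for both). With 1 library left out, the estimate of Gucy1a3 ran from 0.50 to 0.84. It was called in 1 of 6 such fits, the one without control lung 3 (0.84, adjusted p = 0.0374).

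A list of 24 genes covered the removal of superoxide and peroxide, and it also held Hmox1, whose enzyme breaks down heme. In the mean over organs 2 rose and 4 fell, against 4.39% and 5.23% of all genes, with a median of -0.06 against 0.00. Sod2, the mitochondrial superoxide dismutase, fell by 0.96 ± 0.17 (adjusted p = 0.0104; called in 18 of 18). It was 197, 101 and 62.1 FPKM in control lung and 45.7, 41.6 and 40.1 in H2 lung, and 192, 145 and 229 FPKM against 113, 83.8 and 91.1 in the liver. In both organs the groups did not overlap. Hmox1, the heme oxygenase, fell by 0.92 ± 0.26 (adjusted p = 0.0401; called in 5 of 18), glutathione reductase Gsr by 0.69 ± 0.18 (adjusted p = 0.0297; called in 8 of 18) and thioredoxin reductase Txnrd1 by 0.57 ± 0.16 (adjusted p = 0.0431; called in 4 of 18). Prdx2, a peroxiredoxin, rose by 0.40 ± 0.10 (adjusted p = 0.0283; called in 8 of 18) and catalase Cat by 0.71 ± 0.21 (adjusted p = 0.0447; called in 4 of 18). Hepatic Cat was 59.5, 158 and 39.1 FPKM in controls and 222, 248 and 242 with H2. In the lung 12 of the 24 lay lower with H2 without overlap, against 15.9% of all genes.

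Within the organs the 4 phagocyte genes followed one another over the 18 libraries after each organ's mean was removed. Pearson's r of log2(FPKM + 1) was 0.83 between Cybb and Ncf4, 0.73 between Ncf1 and Ncf4, 0.71 between Cyba and Ncf1 and 0.56 between Cybb and Ncf1. Nos3 followed Cybb with 0.68, and Nos2 followed Duoxa2 with 0.70 but Duox2 with 0.16. These are descriptions over libraries that share their scaling, their treatment groups and possibly their mice. Over all genes, the nearest to Cybb were Nfkb1 (0.96), Fmnl1 (0.94) and Hcls1 (0.93), and the nearest to Nos3 were Slc7a6 (0.95), Ch25h (0.94) and Nup93 (0.93). Cyba was nearest to Pgam1 (0.91), Snrpc (0.88) and Vdr (0.86), Ncf4 to Gyltl1b, Pak6 and Hbs1l (each 0.91), and Ncf1 to Ankrd1 (0.87), Fbxl2 (0.85) and Pira2 (0.83). Among the gut genes, Duoxa2 was nearest to Ces2c (0.93), Dmbt1 (0.90) and Ces2a (0.90), Duox2 to Unk (0.87), Fiz1 (0.84) and Adprhl2 (0.82), Nos2 to Stk38l (0.77), Nrf1 (0.76) and Ctsd (0.74), and Nox1 to Trmt13 (0.88), Foxs1 (0.84) and Slc17a8 (0.83). The r between Duox2 and Duoxa2 was 0.39. Both were at or under 0.106 FPKM in the lung and near 0 in the liver except control liver 1. Their r values therefore rest mainly on the intestine libraries and control liver 1.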

How the data were processed

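Poly(A) RNA libraries of 18 samples were made with a stranded mRNA kit, per the labels' protocols. Per the submitters' processing notes, the genome build was mm10 and the tools included Cufflinks 2.2.1 and TopHat2 2.0.13 (with Bowtie2 2.2.3; SAMtools 0.1.19). For annotation, options and strand setting: not given in the sources used here. FPKM, 1 per symbol and library, are the authors' deposited values. One file held a second column equal to another library (0 values differ), which was not used. Groups were taken from the titles; the descriptions of H2 replicates 2 and 3 give the gas a different number.

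From these, log2(FPKM + 1) was tested with limma 3.58.1 in R 4.3.3 (empirical Bayes with trend, two-sided). Each organ was fitted on its 6 libraries. The mean over organs, differences of organs and control organs used a single fit of 18 libraries with a mean for each group. Genes entered a fit at a mean FPKM of 1 or more, and Benjamini-Hochberg adjustment ran over all of them. On simulated data, the test recovered 65%, 41% and 57% of genes set to a log2 change of 1 in liver (10041 genes), intestine (11910) and lung (13424), and 95%, 86% and 94% at a log2 of 2. Values were drawn as independent normal values, and the changed genes were drawn only above a set mean level. Of the tested members, Cybb, Ncf1, Ncf4 and Nos3 in the liver lay below that level. So did Cybb, Ncf1, Ncf4 and Nox1 in the intestine, and Nox1 and Nos2 in the lung. The rates do not apply to these. FPKM hold no counts, so single values have no counting interval; depth was estimated from the FPKM of single fragments. Places come from GENCODE vM21. Promoters come from RefSeq, which gave none for Ncf4, Nos2 and Nos3.

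The members and gene lists were chosen with earlier results of these data known. Beside the 9 genes, each list gave its counts and up to 4 tested genes with the smallest p in the comparison described; likeness took the 3 genes with the highest Pearson r. Rac2, Noxo1, Duox1, Duoxa1, Cat, Txnrd1, Camp, Cxcr2, S100a8, S100a9, Clec4f, Vsig4, Ly6c2, Cdh5, Pecam1 and Cldn5 were added outside the rule after values were seen where the rule did not take them. The labels do not say whether replicate numbers pair the samples. Same-numbered control and H2 libraries correlated from -0.11 to 0.33, and differently numbered ones from -0.28 to 0.24. Lung epithelial markers summed to 7.073 and 7.075 FPKM in control and H2 liver 1, against 0.392 to 1.975 in the other liver libraries. In control and H2 intestine 1 they summed to 4.85 and 6.64 FPKM, against 0.375 to 0.588 in the others. What libraries of the same number share was not tested. Alternatives were pseudocounts of 0.1 and 5, the filter left out or set at 5 FPKM, quantile and median-of-ratios scaling, no trend, a robust fit, a replicate block, 1 fit of all organs and each library left out. Chosen after seeing the data were leaving out control liver 2 with control lung 3, and 1 mean over organs per number.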

Additional observations from a re-analysis of the deposited data

How the results depend on the processing

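The 3 calls among the 9 genes in the mean over organs became 1 with a pseudocount of 5, 0 without the filter, 1 with the replicate block and 0 with 1 mean over organs per number. They were 0 to 3 with 1 library left out, and 3 without control liver 2 and control lung 3 together. The calls kept their sign throughout, and single calls were also lost for Nos3 with a pseudocount of 0.1 and with median-of-ratios scaling, and for Ncf4 with quantile normalization; Nos3 was not tested at a mean of 5 FPKM. Members called in a single organ ran, with 1 library left out, from 0 to 2 in the liver (2 without control liver 2), from 0 to 0 in the intestine and from 0 to 1 in the lung (1 without control lung 3).

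Counts over all genes moved far more. In the liver, 2 genes called became 0 with a pseudocount of 0.1, without the filter, at a mean of 5 FPKM and with the replicate block, 279 in the fit of 18 libraries, and 0 to 2834 with 1 library left out (2834 without control liver 2). In the intestine, 1 became 2 with the robust fit, 3 with the block, 225 in the fit of 18, and 2 to 28 with 1 left out. In the lung, 1 became 2 without the filter, 535 in the fit of 18, and 1 to 3295 with 1 left out (3295 without control lung 3). In the mean over organs, 1285 became 680 with the replicate block, 16 with 1 mean per number, 3888 without both libraries, and 312 to 2814 with 1 left out.

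For differences of the H2 change between organs, intestine against liver gave 29 genes, and 15, 61, 61, 7, 52, 48 with pseudocounts of 0.1 and 5, no filter, 5 FPKM, median-of-ratios scaling and the robust fit, 914 without both libraries (then 1 member, Nos3) and 10 to 779 with 1 left out. Lung against liver gave 32, and 15, 139, 120, 2 with the first 4 of these settings, 49 with the robust fit, 7 with the block, 990 without both libraries and 2 to 588 with 1 left out. Lung against intestine gave 166, and 29, 351, 402, 38 with the same 4, 44 with quantile and 44 with median-of-ratios scaling, 86 with the block, 1229 without both libraries and 18 to 1035 with 1 left out. No member was called in any of these with 1 library left out (0 to 0).

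In control organs, the members called for intestine against liver were 8 with quantile normalization, under which Cybb (-0.41), Ncf1 (-0.44) and Ncf4 (-0.51) turned lower in the intestine; with median-of-ratios scaling they were -0.34, -0.31 and -0.38. Lung against liver turned to -0.13 for Nox1 and -0.18 for Nos2 with quantile normalization. With 1 library left out, the members called were 5 to 7 for intestine against liver, 7 to 7 for lung against liver and 8 to 9 for lung against intestine. Elsewhere the sign turned for intestinal Ncf1 (0.0228) with quantile normalization.

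With 1 library left out, the sign turned for changes with small estimates, whose ranges were -0.16 to 0.0648 (Ncf1), -0.36 to 0.10 (Duox2), -0.23 to 0.13 (Duoxa2), -0.55 to 0.18 (Nos2) and -0.22 to 0.36 (Nox1) in the intestine and -0.16 to 0.0294 (Nox1) in the lung. Over organs they were -0.18 to 0.0603 (Nos2) and -0.0683 to 0.12 (Nox1), and for Duox2 in control lung against liver -0.29 to 0.0219. The replicate block changed no other call of the 9 genes than those of Cybb (adjusted p = 0.0560) and Nos3 (adjusted p = 0.0553). What depth limits was not tested; Nos3 in the intestine and Nos2 in the liver lay under the filter.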
